A study of Homo sapiens with 11 samples.

Results

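The genes described here are 10 integrin subunits, the beta chains ITGB1, ITGB3, ITGB4, ITGB5 and ITGB6 and the alpha chains ITGA2, ITGA3, ITGA5, ITGA6 and ITGAV. They were chosen by name as the integrin chains of epithelial tumour cells. They are 10 of the 25590 genes in the tables, and all 10 were among the 16630 genes with enough reads to test.

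An integrin is a receptor made of 1 alpha and 1 beta chain that spans the plasma membrane and holds a cell to the proteins of the extracellular matrix. ITGB1 pairs with many alpha chains, among them ITGA2 (collagen), ITGA3 and ITGA6 (laminins) and ITGA5 (fibronectin), whereas ITGB4 pairs with ITGA6 alone and anchors epithelial cells to laminin in hemidesmosomes. ITGAV pairs with ITGB1, ITGB3, ITGB5 and ITGB6 in receptors for vitronectin, fibronectin and the latent form of TGF-beta. The cytoplasmic end of most beta chains binds talin and kindlin, the adaptors that switch an integrin to its active form and link it to actin.

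RNA was sequenced from 11 subcutaneous tumours of PC-3, an established human prostate carcinoma cell line, grown in young adult male athymic nude mice. In these mice T cells are lacking, and the tumour cells had been injected with matrigel, a basement membrane extract that itself contains integrin ligands. The 6 A2M* tumours came from mice given intraperitoneal A2M*, the transformed form of the plasma protein alpha-2-macroglobulin that binds the receptor LRP1, and the 5 PBS tumours from mice given the buffer. Since A2M* has been studied for its effect on adhesion of tumour cells, the comparison asks whether the integrin transcripts of the tumour cells differ after treatment. All values are from reads assigned to human.

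Tumours are named by their number in the labels, T123 to T127 for PBS and T128 to T132 and T112 for A2M*. Each gave 1 library with 16958533 to 35874381 counted reads, and the 10 subunits had at least 563 counts in every tumour, so counting error was small beside the spread between tumours. Levels are given as RPKM (reads relative to exon length and library total), the scale on which different genes were compared, and group tests as CPM (counts relative to the library total after TMM normalization, which sets a common scale between libraries). All 5 epithelial markers (EPCAM, CDH1, KRT8, KRT18, KRT19) were high, with a summed RPKM of 1084 to 1372 in the PBS tumours and 896 to 1370 in the A2M* tumours. Some human markers of fibroblasts (DCN, LUM), endothelium (CDH5, VWF, KDR) and platelets (GP9, PF4) had a mean of at most 0.0923 RPKM. The other genes of these lists were higher, with COL1A1 at 89.0, COL3A1 at 5.38, ITGA2B at 4.10, PECAM1 at 3.93, COL1A2 at 0.530 and PDGFRB at 0.151 RPKM. Summed over each whole list in the PBS and the A2M* tumours, the RPKM was 54.2 to 113 and 54.1 to 156 for 6 fibroblast markers, 3.51 to 5.24 and 3.33 to 5.13 for 4 endothelial ones, and 3.57 to 5.24 and 3.33 to 5.05 for 3 platelet ones. The 4 leukocyte markers summed to 33.0 to 38.9 and 29.0 to 41.6 RPKM, of which ITGB2 had a mean of 22.0, CD68 13.1, CSF1R 0.629 and PTPRC 0.222 RPKM. The only human cells injected were PC-3, so these reads may come from PC-3 itself or from mouse reads assigned to human. The part of mouse reads in the values below was not tested. In tissue RNA, fewer cells of a type and less RNA per cell cannot be told apart.

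On GRCh37 the genes of the beta chains lie at chr10:33176201-33294720 (ITGB1, minus strand), chr17:45331193-45391109 (ITGB3, plus), chr17:73717408-73753899 (ITGB4, plus), chr3:124480795-124620265 (ITGB5, minus) and chr2:160956178-161056824 (ITGB6, minus). Those of the alpha chains lie at chr5:52285170-52390609 (ITGA2, plus), chr17:48133332-48167845 (ITGA3, plus), chr12:54789045-54813050 (ITGA5, minus), chr2:173292082-173371187 (ITGA6, plus) and chr2:187454737-187545628 (ITGAV, plus).

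A short motif was searched for in the last 70 residues of each beta chain, and its matches are shown here. The stretches below were read from the GRCh37 genome with the GENCODE annotation and run 5′ to 3′ on the coding strand. Capitals mark the 4 codons of the motif searched, which were asparagine, proline, any residue and then tyrosine or phenylalanine, within the last 70 residues of the chain.
ITGB1, proximal, chr10:33190540-33190563, minus strand: ggtgaaAATCCTATTTATaagagt
ITGB1, distal, chr10:33190504-33190527, minus strand: gtggtcAATCCGAAGTATgaggga
ITGB3, chr17:45387505-45387528, plus strand: gccaacAACCCACTGTATaaagag
ITGB5, chr3:124482542-124482565, minus strand: gcttcaAATCCATTATACagaaag
ITGB6, chr2:160958322-160958345, minus strand: ggaaccAATCCACTCTACagagga

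With proline required, ITGB1 carried 2 matches, and ITGB3, ITGB5 and ITGB6 carried 1 each. Sites with another residue in place of proline were not searched for, so these counts are not counts of adaptor sites. ITGB4 had 0 matches in its last 70 residues. Over the whole chain there were 3 matches in ITGB1, 2 in ITGB3 and 1 each in ITGB4, ITGB5 and ITGB6. The chain of ITGB4 is the longest, with 1822 residues against 788 to 799 for the other beta chains. The window therefore covers a smaller part of it, and the search does not show that ITGB4 differs in the part that adaptors bind. The motif was found in the last 70 residues of 1.16% of 18577 human coding sequences searched in the same way. A match describes the letters and is not evidence that a protein binds there, and no match concerns this window only.

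PC-3 tumours held abundant RNA of 3 integrin chains and much lower levels of the RNA of 7. With the authors' exon lengths ITGB1 was the highest, with a mean of 576 ± 67.4 RPKM (SD, n = 11 tumours) and position 90 among all 25590 genes. ITGA3, the alpha chain of a laminin receptor, followed with 346 ± 45.3 RPKM, and ITGB4 with 324 ± 74.1 RPKM. Below a gap of 9.44-fold came ITGA6 (33.6 ± 3.81 RPKM), ITGB6 (32.2 ± 4.35 RPKM), ITGA2 (29.9 ± 4.85 RPKM) and ITGAV (21.4 ± 3.35 RPKM). The lowest were ITGA5 (16.7 ± 2.85 RPKM), ITGB3 (13.5 ± 2.71 RPKM) and ITGB5 (11.0 ± 1.36 RPKM).

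**Figure D1:**
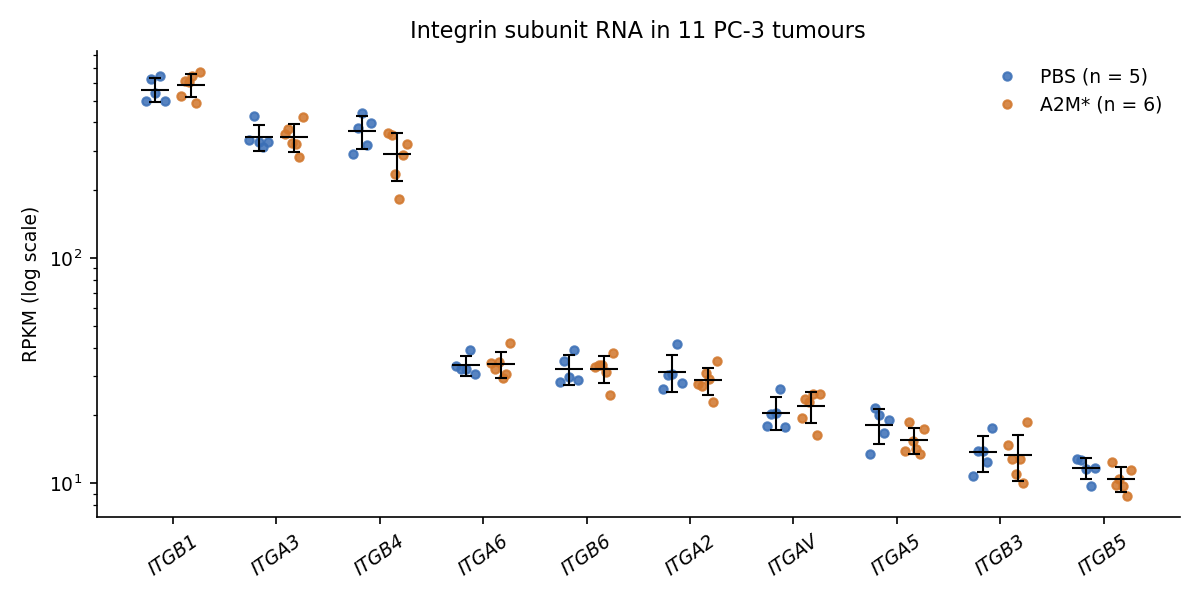
RPKM (authors' exon lengths) of the 10 integrin subunits on a log axis, ordered by level, with 1 point per tumour for the PBS (n = 5) and A2M* (n = 6) groups; black lines give the mean and SD. ITGB1, ITGA3 and ITGB4 lie above 182 RPKM in every tumour and the other 7 subunits below 42, and the points of both groups overlap for every gene.

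Of the 9 steps between neighbours in this order, 7 differed beyond their spread over the 11 tumours (two-sided exact sign-flip permutation test on log2 RPKM, Benjamini-Hochberg adjusted p between 0.00293 and 0.0138). ITGB1 exceeded ITGA3 in 11 of 11 tumours, by 1.67-fold. ITGA3 and ITGB4 were not told apart, with ITGA3 the higher in 6 of 11 tumours (exact permutation p = 0.279, adjusted 0.279), and neither were ITGA6 and ITGB6, with ITGA6 the higher in 7 of 11 (exact permutation p = 0.151, adjusted 0.170). The exon length the authors divided by, from RefSeq, was 4087 bases for ITGB1 and 7210 for ITGAV. The exons of the GENCODE annotation cover 14561 and 19336 bases, so the order depends on the length used. With the union of GENCODE exons as length, an alternative chosen after the data were seen, the same 3 chains were the highest. Their order was then ITGB4 (291 RPKM), ITGA3 (177 RPKM) and ITGB1 (162 RPKM). The reads were not recounted on these exons, so only the divisor changed, and this cannot show which order is right. The other 7 were then between 5.70 and 29.9 RPKM, with ITGA2 above ITGA6 and ITGB6, and ITGB3 and ITGA5 above ITGAV.

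The spread between tumours was not the same for all subunits. ITGB4 varied most, from 182 RPKM in A2M* tumour T131 to 442 RPKM in PBS tumour T125, a 2.43-fold range. ITGB1 varied least, from 490 to 670 RPKM (1.37-fold). For the other 8 chains the highest tumour was 1.43-fold to 1.86-fold above the lowest.

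By the authors' lengths ITGB1 made up 58.5% of the summed RPKM of 8 beta chains, and ITGB4 32.6%. Among 18 alpha chains ITGA3 made up 71.2%, ITGA6 6.95% and ITGA2 6.19%. Together the 10 subunits held 95.3% of the RPKM of 26 integrin chains (94.0% to 96.0% over tumours). The other 16 had means between 0.0129 and 23.7 RPKM, and 10 of them were under 1 RPKM. The 3 highest of these were ITGA10, a collagen receptor chain (23.7 RPKM), ITGB2, the beta chain of leukocyte integrins (22.0 RPKM), and ITGB8, a partner of ITGAV (8.62 RPKM).

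Treatment groups differed in 0 of the 10 subunits, both at a threshold of 0.01 and at one of 0.05 on the adjusted p (edgeR quasi-likelihood test, Benjamini-Hochberg adjustment over 16630 genes). Over all genes tested the share called was 0 at either threshold. At an unadjusted p under 0.05 there was 1 of 10, ITGB4, where 7.08% of all genes tested passed (3.53% lower and 3.55% higher in the A2M* tumours). DESeq2, edgeR's likelihood ratio test and limma-voom also called 0 of the 10 at an adjusted p under 0.01, with 1, 2 and 1 at an unadjusted p under 0.05. With upper quartile scaling or library size only in edgeR, 0 of the 10 had an unadjusted p under 0.05 (ITGB4 0.0517 and 0.0583). The same held for limma on log2(RPKM + 0.1) and log2(RPKM + 1) (ITGB4 0.0525 and 0.0550). ITGB4 also missed 0.05 in edgeR with 1 surrogate variable (unadjusted p = 0.0566). The log2 fold change was below 0 for 8 of the 10, against 50.6% of all genes, with a median of -0.06 against -0.0021 over all genes. Only ITGB1 and ITGAV were above 0, and 5 of the 10 signs turned under at least 1 other scaling or model: ITGB6, ITGA3 and ITGA6 were just above 0 with library size only and on RPKM, but not with RLE or upper quartile scaling, and ITGB1 and ITGAV just below 0 with 1 surrogate variable. For 0 of 10 subunits did the groups separate without overlap in CPM, and 0.71% of all genes did.

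**Figure D2:**
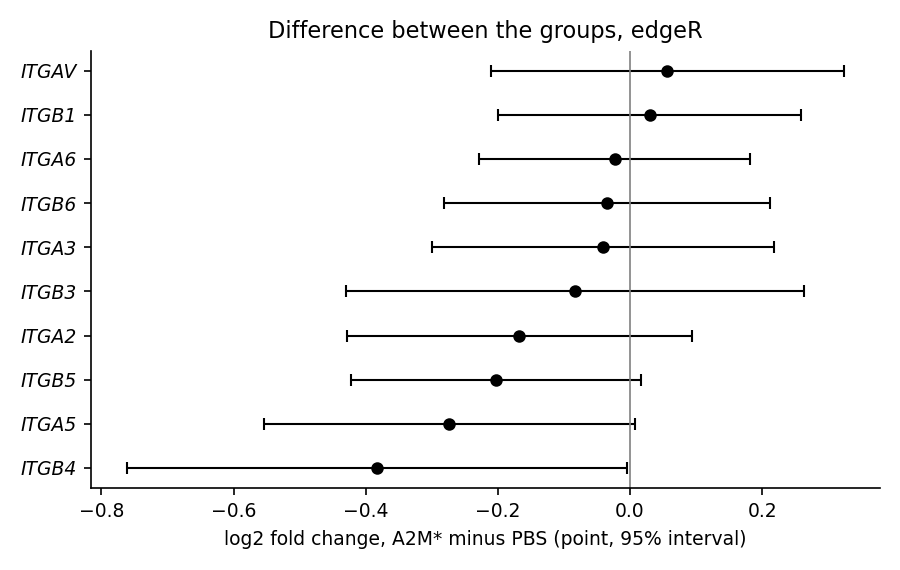
Log2 fold change of each subunit, A2M* minus PBS, from edgeR, as a point with its 95% interval; the grey line marks no difference. The interval of ITGB4 ends at -0.0048 and those of the other 9 subunits include 0.

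Among the beta chains ITGB4 had the lowest fold change. Its RNA was at 1737, 2403, 2792, 1923 and 2473 CPM in PBS tumours T123 to T127, and between 1075 and 2168 CPM with a median of 1824 in the A2M* tumours. A2M* tumours T131 (1075 CPM), T130 (1405 CPM) and T132 (1694 CPM) were below all PBS tumours, and 3 PBS tumours were above all A2M* tumours. The PBS mean was 2266 ± 429 CPM (SD, n = 5) and the A2M* mean 1737 ± 433 CPM (SD, n = 6). On the log2 scale edgeR gave -0.38 (standard error 0.176, 95% interval -0.76 to -0.0048, unadjusted p = 0.0475, adjusted p = 0.699). With each tumour left out in turn the log2 fold change lay between -0.46 and -0.27, the latter without A2M* tumour T131, and the unadjusted edgeR p between 0.0235 and 0.129.

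ITGB1, the common partner of most alpha chains, did not differ between the groups beyond its error. The PBS tumours T123 to T127 had 2005, 2658, 2285, 2611 and 2083 CPM, and the A2M* tumours 1954 to 2753 CPM with a median of 2443. Both the lowest and the highest of the 11 tumours were in the A2M* group, and the ranges overlapped throughout. Its log2 fold change was 0.03 (standard error 0.107), and the 95% interval was -0.20 to 0.26.

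ITGB5, which forms a vitronectin receptor with ITGAV, had 42.7, 44.6, 40.3, 32.8 and 40.1 CPM in PBS tumours T123 to T127, and 29.0 to 41.8 CPM with a median of 33.7 in the A2M* tumours. PBS tumours T125, T126 and T127 lay within the A2M* range, T123 and T124 were above all A2M* tumours, and the log2 fold change was -0.20 (standard error 0.102, edgeR unadjusted p = 0.0671, adjusted p = 0.734). With each tumour left out in turn the log2 fold change of ITGB5 lay between -0.27 and -0.16. Its unadjusted edgeR p then lay between 0.0154, without PBS tumour T126, and 0.162, without PBS tumour T124. It was also under 0.05 without A2M* tumour T128 or T112. ITGB6, the epithelial partner of ITGAV, ranged from 130 to 183 CPM in the PBS and from 113 to 179 CPM in the A2M* tumours, and the fold change on the log2 scale was -0.03 (standard error 0.115). ITGB3, the beta chain shared with platelets, ranged from 52.2 to 87.7 CPM and from 47.9 to 91.9 CPM, and the fold change on the log2 scale was -0.08 (standard error 0.161). In GENCODE the exons of ITGB3 share 33.2% of their bases with another protein-coding gene on the same strand, and those of ITGB6 share 16.7% with a long non-coding RNA. Exons of ITGB1, ITGA5, ITGA6 and ITGAV overlap long non-coding RNAs on the other strand, the largest of these overlaps being 2.75%. The reads were counted on RefSeq genes, for which overlaps were not checked, so reads of such pairs may or may not be told apart.

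Of the alpha chains, ITGA5 of the fibronectin receptor had the lowest fold change. Its PBS tumours T123 to T127 had 56.6, 95.4, 88.8, 70.4 and 82.9 CPM, and its A2M* tumours 56.2 to 79.5 CPM with a median of 61.4. PBS tumours T124, T125 and T127 were above every A2M* tumour, while PBS tumour T123 was next to the lowest. The log2 fold change was -0.27 (standard error 0.131, 95% interval -0.55 to 0.0072, edgeR unadjusted p = 0.0554, adjusted p = 0.710). With each tumour left out in turn it lay between -0.37, without PBS tumour T123, and -0.20, without PBS tumour T124. The unadjusted edgeR p of ITGA5 was then 0.00626 and 0.165 (adjusted p = 0.592 and 0.972). It was also under 0.05 without T126, T129 or T112.

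ITGA2, of the collagen receptor, had 206, 251, 252, 325 and 225 CPM in PBS tumours T123 to T127 and 177 to 276 CPM with a median of 220 in the A2M* tumours. PBS tumour T126 was the highest of all 11, and the log2 fold change was -0.17 (standard error 0.121, edgeR unadjusted p = 0.189, adjusted p = 0.838). Without that tumour it was -0.059, and with 1 surrogate variable in the model -0.23 (unadjusted p = 0.0199). The laminin receptor chains had fold changes near 0. ITGA3 ranged from 1555 to 2238 CPM in the PBS and from 1377 to 2128 CPM in the A2M* tumours (log2 fold change -0.04, standard error 0.120), and ITGA6 from 181 to 226 CPM and from 165 to 244 CPM (log2 fold change -0.02, standard error 0.0955).

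ITGAV, given here as RPKM, had 17.9, 20.3, 20.6, 26.3 and 17.9 in PBS tumours T123 to T127, and 16.3 to 24.9 with a median of 23.4 in the A2M* tumours. A2M* tumour T132 was the lowest of the 11 and PBS tumour T126 the highest. The log2 fold change from the counts was 0.06 (standard error 0.124, 95% interval -0.21 to 0.32).

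Since a receptor needs both chains, the ratio of alpha to beta RPKM was taken in each tumour for 9 known pairs, which does not depend on the scaling between tumours. With the authors' exon lengths each of 5 alpha chains was lower than ITGB1, with a geometric mean ratio of 0.600 for ITGA3, 0.0584 for ITGA6, 0.0517 for ITGA2, 0.0370 for ITGAV and 0.0289 for ITGA5. ITGA6 was at 0.106 of ITGB4, its partner in hemidesmosomes. ITGAV was at 0.662 of ITGB6 but above its other partners, at 1.59 of ITGB3 and 1.94 of ITGB5. With GENCODE exon lengths and the same counts, ITGA3 was at 1.10 of ITGB1 and below it in 3 of 11 tumours. ITGAV was then at 0.829 of ITGB3 and below it in 8 of 11. The other 7 ratios stayed on their side of 1 in every tumour, and differences between the groups do not depend on the length.

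**Figure D3:**
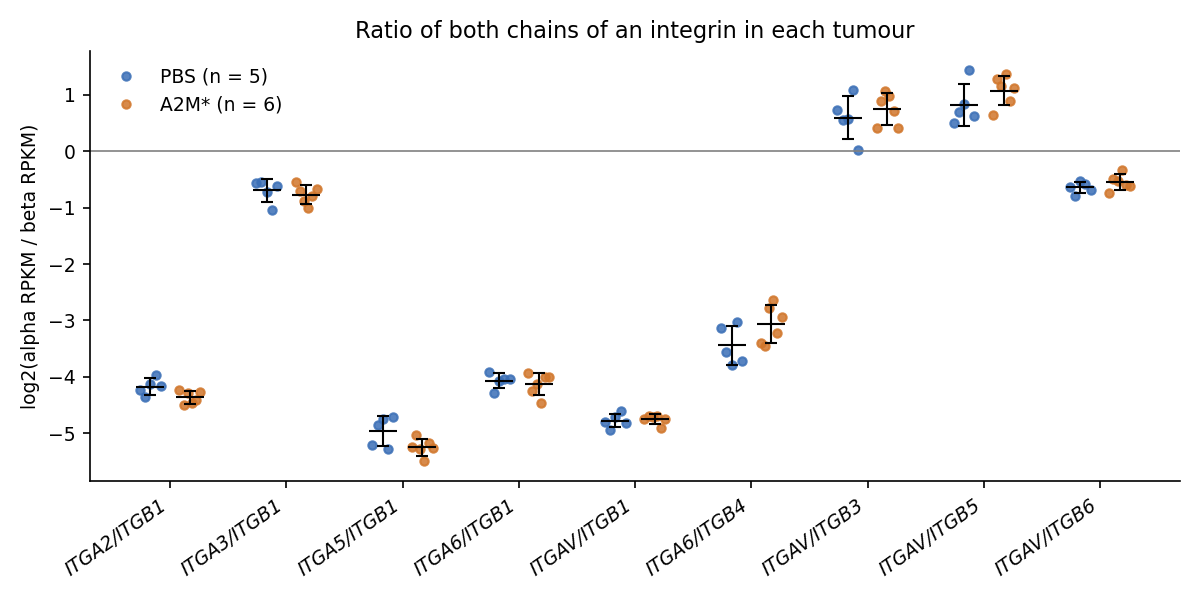
Log2 ratio of alpha to beta chain RPKM (authors' exon lengths) for 9 integrins, 1 point per tumour, PBS (n = 5) and A2M* (n = 6), with mean and SD in black; the grey line marks equal levels. ITGAV lies above ITGB3 and ITGB5 in all 11 tumours, and the other 7 ratios lie below the line in all tumours.

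Of these 9 ratios, only ITGA2/ITGB1 had an exact permutation p under 0.05, with a ratio of 0.0488 to 0.0643 (median 0.0558) in the PBS tumours and 0.0442 to 0.0531 (median 0.0491) in the A2M* tumours. Of the A2M* tumours 3 of 6 were below all PBS tumours, and the difference was -0.19 on the log2 scale (exact permutation test, two-sided, p = 0.0346, adjusted over the 9 pairs 0.282). The exact p was above 0.05 without PBS tumour T125, T126 or T127 or A2M* tumour T129, T131 or T132, with differences between -0.19 and -0.14. ITGA5/ITGB1 differed by -0.29 on the same scale (exact permutation p = 0.0628, adjusted 0.282) and ITGA6/ITGB4 by 0.37 (exact permutation p = 0.110, adjusted 0.331), and neither passed. The share of ITGB4 among beta chains was 36.0% ± 4.74 (SD, n = 5) in PBS and 29.8% ± 6.09 (SD, n = 6) in A2M* tumours (exact permutation p = 0.0974). That of ITGB1 was 55.2% ± 4.65 and 61.2% ± 6.27 (exact permutation p = 0.108).

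Some pairs of chains varied together from tumour to tumour. ITGAV followed ITGB1 over the 11 tumours, with Pearson r = 0.915 and Spearman rho = 0.845 of log2 CPM (permutation p = 0.00012 and 0.00169, adjusted over 9 pairs 0.00108 and 0.0152). Without tumours T126 and T132, the farthest from the median of ITGAV, r was 0.893, and taken as deviations from the group means it was 0.914. ITGAV also followed ITGB6 (r = 0.834, rho = 0.764, permutation p = 0.00127 and 0.0086, adjusted 0.00571 and 0.0387), with r = 0.640 without the same 2 tumours. ITGA2 followed ITGB1 (r = 0.730, rho = 0.727, permutation p = 0.0078 and 0.0147, adjusted 0.0234 and 0.0441), with r = 0.657 without them. Without A2M* tumour T132, the lowest in ITGAV, ITGB1, ITGB6 and ITGA2, only ITGAV/ITGB1 stayed past an adjusted p of 0.05, while ITGAV/ITGB6 had 0.0684 and ITGA2/ITGB1 0.110. ITGA2/ITGB1 also had an adjusted p of 0.0530 without PBS tumour T123 and 0.0517 without A2M* tumour T112.

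**Figure D4:**
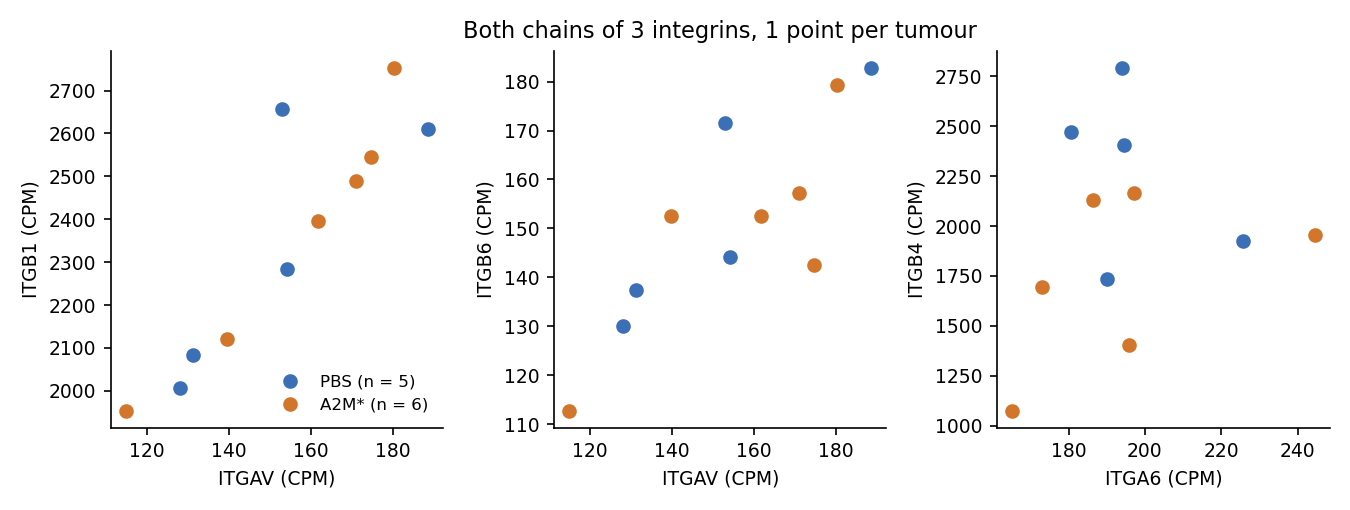
CPM of both chains of 3 integrins, 1 point per tumour, PBS (n = 5) and A2M* (n = 6). ITGAV rises with ITGB1 (r = 0.915) and with ITGB6 (r = 0.834), with A2M* tumour T132 at the lower left of both plots, while ITGA6 and ITGB4 show a wide scatter (r = 0.300).

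The other 6 pairs did not pass. ITGA6 and ITGB4 had r = 0.300 and rho = 0.200 (permutation p = 0.373 and 0.560, adjusted 0.472 and 0.560), and r = -0.020 without tumours T112 and T131. ITGAV had r = 0.269 (rho = 0.227) with ITGB3 and -0.15 (rho = -0.34) with ITGB5, with adjusted permutation p of 0.472 and 0.664 for r and 0.560 and 0.400 for rho. Without tumours T126 and T132, r was 0.073 with ITGB3 and -0.66 with ITGB5. Without A2M* tumour T132 alone, ITGAV and ITGB5 had r = -0.73 (permutation p = 0.0228, adjusted 0.0684). Their r was -0.74 in the PBS tumours alone and 0.32 in the A2M* tumours alone. ITGA3, ITGA5 and ITGA6 had r between 0.458 and 0.569 and rho between 0.445 and 0.518 with ITGB1, with adjusted permutation p of 0.155 to 0.233 for r and 0.205 to 0.261 for rho. All these values come from the same 11 libraries and share their normalization.

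As a description over the same tumours, 11081 genes were compared with ITGB1. Most alike were FRMD6 (r = 0.951), PLS3, an actin bundling protein (0.938), and SGCB, a sarcoglycan (0.936). ITGAV came at position 12, ITGB6 at 38 (r = 0.864) and ITGA2 at 431 (r = 0.730). ITGB6 with ITGB1 was not among the 9 pairs, so a high r was not particular to chains that pair. Among those most like ITGB4 were CDH3, P-cadherin (0.951), and NCKIPSD (0.951). Of the other 9 members ITGA5 was the nearest to ITGB4, at position 636 (r = 0.718), and ITGB4 and ITGB1 had r = -0.092.

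RNA of the proteins that integrins bind or work with was measured in the same libraries. Of 22 matrix ligands 20 could be tested, and 0 passed an adjusted p under 0.05, while 2 were higher and 1 lower at an unadjusted p under 0.05 (edgeR; 3.55% and 3.53% of all genes). The highest were THBS1, a thrombospondin (397 RPKM), LAMB3, a chain of the laminin that ITGA6 with ITGB4 and ITGA3 with ITGB1 bind (286 RPKM), and TNC, tenascin C (170 RPKM). LAMA4, a laminin chain, had a log2 fold change of -0.46 (unadjusted p = 0.0255), COL1A2, a collagen chain at 0.530 RPKM, 0.73 (unadjusted p = 0.0459), and TGFB3 0.14 (unadjusted p = 0.0494), with adjusted edgeR p of 0.648 to 0.701.

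Of 25 talin, kindlin and focal adhesion genes, 18 had a fold change below 0 (50.6% of all genes), with a median of -0.05, and 0 passed an adjusted p under 0.05, with 3 lower at an unadjusted p under 0.05 (edgeR; 3.53% of all genes). ACTN1, an actin crosslinker (343 RPKM), VCL, vinculin (163 RPKM), and ZYX, zyxin (150 RPKM), were the highest. The 3 lower ones were the kinase SRC (log2 fold change -0.24, unadjusted p = 0.00313), PARVB, which joins the integrin-linked kinase to actin (-0.26, unadjusted p = 0.00549), and VASP, which promotes the growth of actin filaments (-0.16, unadjusted p = 0.0482), with adjusted edgeR p of 0.599 to 0.700. PARVB was the 1 gene of the list with groups that did not overlap, as 0.71% of all genes did.

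The 4 hemidesmosome genes, which work with ITGB4, all had fold changes below 0 (50.6% of all genes), with a median of -0.22. The same was true of all 4 integrin inactivators and all 5 epithelial markers. Of the hemidesmosome genes 1 was lower at an unadjusted p under 0.05 (edgeR; 3.53% of all genes). CD151, the tetraspanin that binds ITGA3 and ITGA6, had 330 ± 33.2 RPKM (SD, n = 5) in the PBS and 289 ± 25.0 RPKM (SD, n = 6) after A2M*, which in edgeR was -0.24 on the log2 scale (unadjusted p = 0.0206, adjusted p = 0.643). PLEC, the plectin that ties ITGB4 to keratin (98.6 RPKM), had -0.03, and DST (17.2 RPKM) had -0.20. Of the 4 integrin inactivators, led by FLNA, filamin A (302 RPKM), SHARPIN (67.9 RPKM) and ITGB1BP1 (32.0 RPKM), 0 had an unadjusted edgeR p under 0.05. The same held for 10 surface proteins that associate with integrins, led by CD63 (379 RPKM), CD9 (192 RPKM) and BSG (178 RPKM), and for 13 trafficking genes, led by RAB25 (70.1 RPKM), NUMB (57.8 RPKM) and SNX17 (53.2 RPKM). The 5 epithelial markers had log2 fold changes of -0.21 to -0.07, and 0 of them had an unadjusted edgeR p under 0.05. Their part in the values of ITGB4 was not tested.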

How the data were processed

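RNA of 11 PC-3 tumours (5 PBS, 6 A2M*) had been prepared with a TruSeq v2 kit, which does not mark strand. The authors sorted reads by species with xenome, mapped with TopHat2 to hg19 and counted human reads per RefSeq gene with featureCounts, with bcl2fastq 1.8.4 upstream per the labels. The authors deposited whole counts, RPM (counts scaled to each library's total; largest difference on recomputing 4.99e-07) and RPKM, which the authors made by dividing RPM by exon length. The RPM values entered no test. Every sample column was used. In each tumour, 3 counts equalled 0.0836 to 0.177 RPM, which covers counting error only.

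Counts were filtered with filterByExpr and tested with edgeR 4.0.16 (R 4.3.3; TMM, quasi-likelihood, adjusted p under 0.01), checked on simulated data. DESeq2 1.42.0, limma 3.58.1 and sva 3.50.0 gave alternatives, with RPKM tested as log2 with pseudocounts of 0.1 and 1. Correlations used 100000 permutations of log2 CPM (prior count 2). Permutation tests were two-sided. The labels give each tumour its own number but do not say that each came from its own mouse, so p-values measure the spread between these tumours.

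The members and gene lists were chosen with earlier results of these data known. Named were the members, in each list the 3 genes with the highest mean RPKM and up to 3 with the smallest unadjusted p under 0.05, and for 2 members the 3 genes with the highest r among genes whose mean log2 CPM was 3 or more, of which 1 is not reported here. Reads assigned to mouse were not analysed here. Sequences are from GRCh37 with GENCODE.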

Additional observations from a re-analysis of the deposited data

Results flagged for a closer look

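In both treatments, single tumours lying apart from their group were looked for over 40 groups of values (CPM of the 10 subunits, the 9 chain ratios and the summed RPKM in both treatments). There were 2 such tumours, and chance gives about 1 in 20 groups, or 2.0 here. PBS tumour T124 had 2238 CPM of ITGA3 against 1555 to 1706 in the other 4 PBS tumours, and without it the log2 fold change of ITGA3 was 0.058. A2M* tumour T132 had an ITGAV/ITGB1 ratio of 0.0333 against 0.0371 to 0.0389 in the other 5 A2M* tumours.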

How the results depend on the processing

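With 5 and 6 tumours and a spread of this size, fold changes as small as those measured here could not be told from 0, and a p that misses the threshold does not show that levels were equal. No paired analysis was possible because the groups share no tumour numbers. The count of members past an adjusted p under 0.01 was 0 in every alternative with this threshold and with each of the 11 tumours left out. It was also 0 with 2 other thresholds, an adjusted p under 0.05 and an unadjusted p up to 0.01 in both edgeR and DESeq2. Over all genes the count at an adjusted p under 0.01 was 1 with DESeq2 and 1 with the edgeR likelihood ratio test. With an unadjusted p up to 0.01 in both edgeR and DESeq2 it was 241, and none of these genes was a member. Signs turned for small log2 fold changes. With library size only, ITGB6 was 0.0077, ITGA3 0.0033 and ITGA6 0.018, with limma on log2(RPKM + 0.1) 0.0077, 0.00067 and 0.013, and on log2(RPKM + 1) 0.0075, 0.00068 and 0.012. With 1 surrogate variable ITGB1 was -0.021 and ITGAV -0.016. With each tumour left out ITGA2 ran from -0.24 to -0.059, ITGAV from 0.0028 to 0.15, ITGB1 from -0.020 to 0.081, ITGB3 from -0.21 to 0.023, ITGB6 from -0.092 to 0.037, ITGA3 from -0.11 to 0.058 and ITGA6 from -0.099 to 0.030. The chain ratios under an exact permutation p of 0.05 numbered 2 with medians, where ITGA5/ITGB1 (-0.39, p = 0.0390) joined, and 0 to 2 with a tumour left out. The ITGAV/ITGB1 difference then ran from -0.018 to 0.064 and that of ITGA6/ITGB1 from -0.11 to 0.0046. Correlated pairs numbered 1 to 4, the 1 without A2M* tumour T132 and the 4, with ITGA6/ITGB1 added, without A2M* tumour T131, and r ran from -0.062 to 0.396 for ITGA6/ITGB4 and from -0.029 to 0.503 for ITGAV/ITGB3. For ITGAV/ITGB5 it ran from -0.73, without A2M* tumour T132, to -0.021, without PBS tumour T123. Of the steps between neighbouring levels, 0 passed in the PBS tumours alone, where 5 tumours cannot give an exact permutation p under 0.0625, and ITGA3 minus ITGB4 was -0.075 there, and 6 passed in the A2M* tumours alone. With GENCODE exons as gene length, chosen after the data were seen and without recounting reads on them, 8 of these steps passed. There ITGB1 minus ITGA3 was -0.13, ITGA3 minus ITGB4 -0.69 and ITGB6 minus ITGA2 -0.19 on the log2 scale. ITGAV minus ITGA5 was -0.27 and ITGA5 minus ITGB3 -7.6e-05, and all of these steps had turned. The cause of the changes under other scalings and models was not tested.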
